A study of Mus musculus with 8 samples.

Results

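The 10 genes described here are Trp53, which encodes the transcription factor p53, and 9 of its target genes: Mdm2, Ccng1, Phlda3, Sesn1, Zmat3, Gdf15, Trp53inp1, Bax and Bbc3. They were taken by gene symbol, with no filter on their values, from the 54532 entries of the deposited count table. The choice was made with earlier results of these data known. All 10 were among the 14150 genes with enough counts to be tested. RNAseq was performed on primary lung fibroblasts (pFBs) of female mice, cultured in complete medium with no treatment, and the series asks how expression of human IGFBP5 (hIGFBP5), a secreted binding protein of insulin-like growth factors, affects their transcriptome. HOMO mice were homozygous for an hIGFBP5 transgene that was knocked in with CRISPR/Cas9 and placed under the Ef1a1 promoter, which is active in most cell types, whereas WT mice were wild type. Both were of the C57/black strain background. There were 4 libraries for each genotype, called WT1 to WT4 and HOMO1 to HOMO4. The ages of the mice and the number of mice behind the libraries are not given in the sources used here, and the human transcript was not analysed here.

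p53 is kept scarce in resting cells by Mdm2, a ubiquitin ligase that marks it for degradation and that p53 itself switches on. DNA damage and other stresses stabilize the protein, which then binds paired decamers in DNA and induces genes for cell cycle arrest, DNA repair, antioxidant defense and cell death. Most of this control acts on the protein, so the mRNA of Trp53 is a poor guide to p53 activity, and the mRNA of its targets is commonly read beside it. In fibroblasts, p53 is best known for arrest and senescence, and several of its targets are also induced by other transcription factors.

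HOMO pFBs had less mRNA of Ccng1 and Phlda3 than WT pFBs, at 2.21-fold and 1.84-fold lower levels, and these were the 2 of 10 genes called as differentially expressed genes (DEGs). The level of Trp53 itself averaged 160.6 CPM in WT and 153.6 CPM in HOMO, with overlapping libraries. CPM are counts scaled to library size. A DEG had a Benjamini-Hochberg adjusted p under 0.05 in edgeR's quasi-likelihood F test over all 14150 genes and an absolute log2 fold change (log2FC, HOMO over WT) above 0.6. Under this rule 0 of the 10 genes were upregulated and 2 were downregulated, while 12.1% of all tested genes were DEGs, 5.94% up and 6.18% down. Of the 10 log2FC, 7 were below 0 and 3 above, with a median of −0.34 beside −0.04 over all tested genes.

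The libraries were not all alike, and this bears on each comparison. Depth ran from 17236521 to 29028769 counted reads in WT libraries and from 19009027 to 31987790 in HOMO libraries, so 3 counts corresponded to 0.0908 to 0.172 CPM, a floor that covers counting error only. There were 3 near-identical pairs of libraries (WT1 with WT2, HOMO1 with HOMO2, HOMO3 with HOMO4), whose genes varied by 4.71% to 7.65% beyond counting noise, while the other 9 pairs of the same genotype varied by 30.05% to 56.46%. The labels do not say that libraries of a genotype came from separate cultures or animals, so p-values measure the spread between these libraries, which may in part be technical. With near-identical libraries summed into 3 WT and 2 HOMO units, edgeR called 0 genes of 16130 tested, and 2057 had an unadjusted p under 0.05. The 9 fibroblast markers summed to 12920 to 16620 CPM in WT and 13970 to 24350 CPM in HOMO libraries, most of it from Col1a1 and Col1a2. Of these 9 markers 2 were DEGs, beside 12.1% of all tested genes. Both were downregulated, Vim at a log2FC of −0.65 (edgeR adjusted p = 0.0430) and Pdgfrb at −0.97 (adjusted p = 0.0251). Of the 9 log2FC, 5 were below 0, with Thy1 at −1.62 (adjusted p = 0.116), and 4 were above. Those above were Col1a1 at 0.82 (edgeR adjusted p = 0.0985), Col1a2 at 0.66 (adjusted p = 0.105), Col3a1 at 0.63 (adjusted p = 0.407) and Pdgfra at 0.12 (adjusted p = 0.824). The 7 macrophage and leukocyte markers, of which 0 were at 0 in all libraries, summed to 128.8 to 1924 CPM in WT and 56.7 to 185.8 CPM in HOMO, with WT3 and WT4 far above the rest. The 14 proliferation markers summed to 1883 and 1634 CPM in WT1 and WT2 and to 326.9 and 162.9 CPM in WT3 and WT4. Their sums were 320.9 and 313.2 CPM in HOMO1 and HOMO2 and 1411 and 1255 CPM in HOMO3 and HOMO4. The 7 epithelial markers summed to 0.450 to 6.43 CPM in WT and 4.28 to 15.3 CPM in HOMO, the 5 endothelial markers to 2.31 to 8.01 and 2.63 to 5.68 CPM, and the 4 mesothelial markers to 21.3 to 152.1 and 90.1 to 129.4 CPM. Of the 3 epithelial markers tested, 1 was a DEG, Cdh1 (log2FC 2.77, edgeR adjusted p = 0.0461), upregulated in HOMO. Krt18 was at 0.66 (adjusted p = 0.655) and Foxj1 at −0.57 (adjusted p = 0.651). Of the 4 mesothelial markers, 1 was a DEG, Wt1 (3.36, adjusted p = 0.0166), upregulated in HOMO. Lrrn4 was at 0.22 (adjusted p = 0.878), Upk3b at 0.09 (adjusted p = 0.928) and Msln at −0.52 (adjusted p = 0.767). These shares stand beside 12.1% of all tested genes. The part of other cell types in the results was not tested. The marker genes given by name were named after their values were seen. In bulk RNA, fewer cells of a type and less RNA per cell cannot be told apart.

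**Figure D1:**
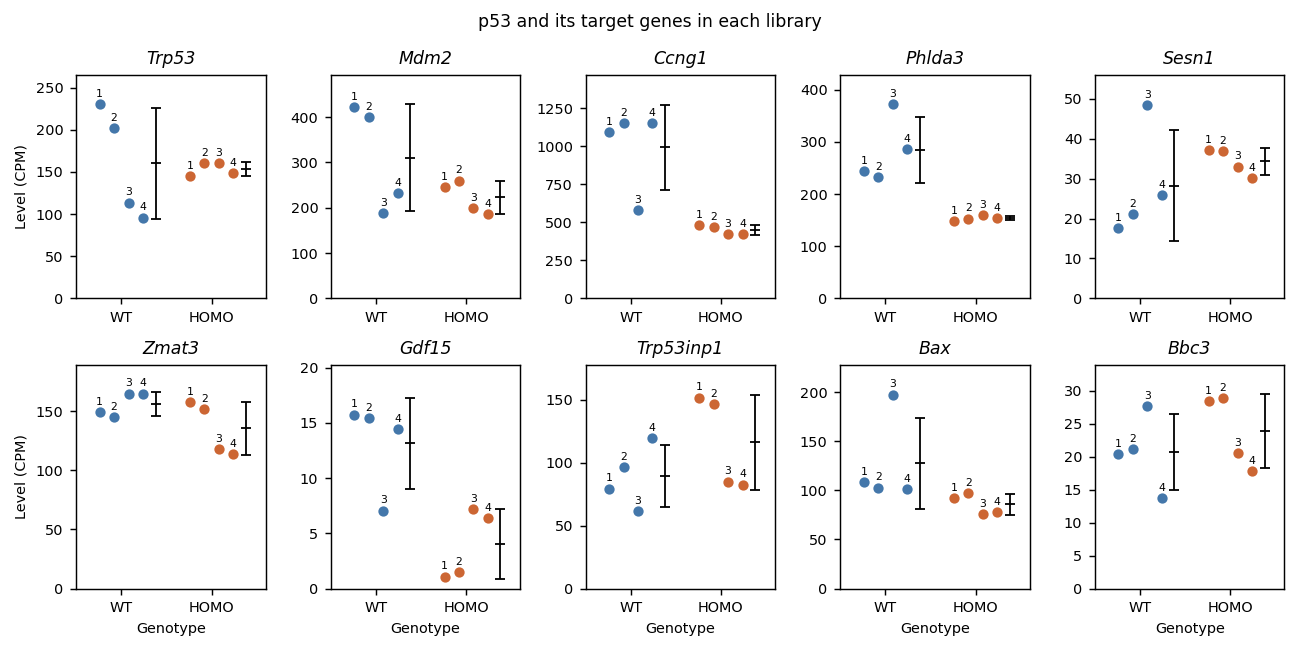
Level of each of the 10 genes (CPM, linear axis from 0) in the 4 WT libraries (blue) and the 4 HOMO libraries (orange), with the replicate number above each point and the mean and SD (n = 4) as a bar beside them. For Ccng1, Phlda3 and Bax all 4 HOMO libraries lie below all 4 WT libraries, and for the other 7 genes the genotypes overlap.

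The stretches below show what the upstream DNA of these genes holds, since p53 acts through decamers of a fixed form. RefSeq windows of GRCm38.p6, from 250 bases before to 50 after each start, were at hand for 8 of the 10 genes in 12 windows, and Zmat3 and Trp53inp1 had none. The p53 consensus decamer was searched with no mismatch. It is its own reverse complement, so a single search covers both strands. A match was present for 5 of the 8 genes, each in 1 window. This made 5 of their 12 windows, beside 8.36% of all 32851 windows. The genes were chosen as p53 and its known targets, so this share is a description only. A pair of adjoining decamers with at most 1 mismatch in 20 bases was present in 29 windows, 0.0883% of all, and Ccng1 was the 1 gene of the 10 that had it. Stretches of 60 bases are printed 5′ to 3′ on the strand of the gene, with the matching bases in capitals and no exon base of the gene within them. Cdkn1a, the best known arrest target of p53, is added for comparison because it also had a pair, as did Rps27l, 2 of the 42 other pathway genes with a window.
Ccng1, chr11:40755442-40755501, minus strand: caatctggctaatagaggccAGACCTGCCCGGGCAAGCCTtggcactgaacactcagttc
Cdkn1a, chr17:29090897-29090956, plus strand: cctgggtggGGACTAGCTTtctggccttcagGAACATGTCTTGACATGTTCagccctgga
Mdm2, chr10:117710910-117710969, minus strand: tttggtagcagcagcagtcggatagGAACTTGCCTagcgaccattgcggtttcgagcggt
Bax, chr7:45467065-45467124, minus strand: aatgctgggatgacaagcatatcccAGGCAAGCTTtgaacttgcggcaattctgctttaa
Sesn1, chr10:41887241-41887300, plus strand: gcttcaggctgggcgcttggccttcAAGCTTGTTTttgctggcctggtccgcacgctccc
Trp53, chr11:69580259-69580318, plus strand: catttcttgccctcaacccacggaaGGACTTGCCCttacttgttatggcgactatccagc
The pair of Ccng1 began 195 bases before its start. That of Cdkn1a began 51 bases before a start near the upstream end of the annotated gene (chr17:29090976-29100727). The single decamers began at −75 for Trp53, −186 for Mdm2, −201 for Bax and −173 for Sesn1, the last at a start site inside the Sesn1 gene. Cdkn1a held a further decamer at −73. A match is a description of letters and not of binding, and the windows of Phlda3, Gdf15 and Bbc3 held no decamer of this form.

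Trp53 (chr11:69580359-69591873, plus strand, GRCm38) was measured at 230 and 202 CPM in WT1 and WT2, and at 114 and 95.9 CPM in WT3 and WT4. Its HOMO levels were 145, 160, 161 and 149 CPM in HOMO1 to HOMO4. The WT libraries thus split into a high and a low pair, and all HOMO libraries lay between these pairs. The means were 160.6 ± 65.9 CPM in WT and 153.6 ± 8.07 CPM in HOMO (SD, n = 4 each), with a log2FC of −0.06 (SE 0.27, edgeR adjusted p = 0.899). Leaving out WT1 gave a log2FC of 0.16 and leaving out WT2 gave 0.06, while limma-voom with sample weights gave −0.42 (adjusted p = 0.0137), short of the fold threshold. The processed pseudogene Trp53-ps had 0 counts in all libraries. The 14 proliferation markers split the WT libraries in the same way, with the higher sums in WT1 and WT2, but were low in HOMO1 and HOMO2, where Trp53 was close to its level in HOMO3 and HOMO4. The part of proliferation in the levels of Trp53 was not tested.

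Mdm2 (chr10:117688875-117710758, minus strand), the ubiquitin ligase that restrains p53 and is itself a p53 target, was measured at 423 and 400 CPM in WT1 and WT2. It was at 188 and 233 CPM in WT3 and WT4, and at 246, 260, 199 and 187 CPM in HOMO1 to HOMO4. WT1 and WT2 again stood above all other libraries, and WT3 and WT4 lay within the HOMO range. The log2FC was −0.48 (SE 0.28, edgeR adjusted p = 0.262), with means of 311.0 ± 118.2 CPM in WT and 222.9 ± 35.7 CPM in HOMO. limma-voom with sample quality weights called Mdm2 downregulated, with a log2FC of −0.93 (adjusted p = 0.000396). The near-identical libraries WT1 and WT2 entered that fit as separate samples, and how far the weights favour such pairs was not tested. This limit holds for every limma-voom value given here. Without WT1 the edgeR log2FC was −0.30 (adjusted p = 0.489).

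**Figure D2:**
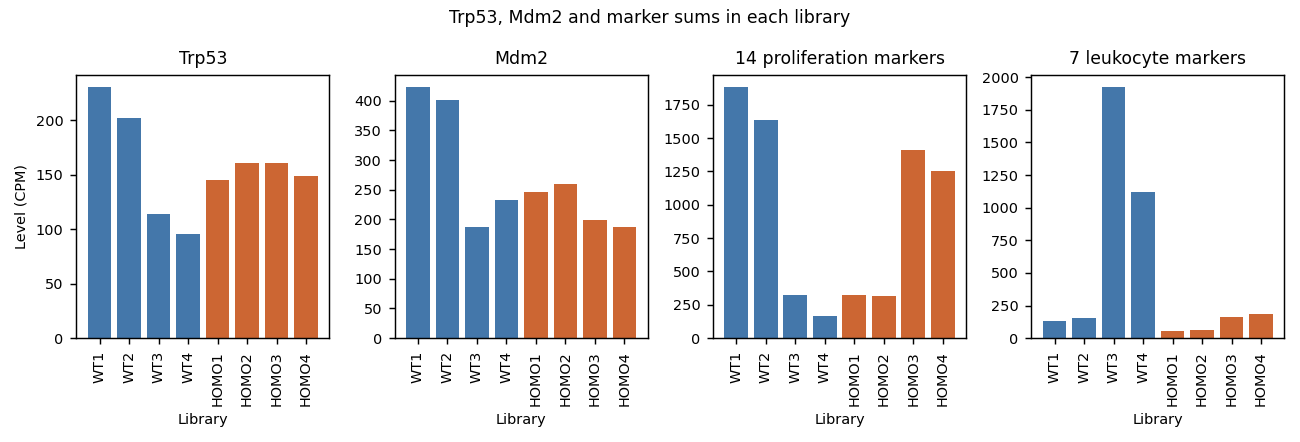
Levels of Trp53 and Mdm2 and the summed levels of 14 proliferation markers and 7 macrophage and leukocyte markers (CPM, linear axes from 0), with 1 bar for each WT (blue) and HOMO (orange) library. WT1 and WT2 are highest for Trp53, Mdm2 and the proliferation markers, whereas WT3 and WT4 are highest for the leukocyte markers.

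The target genes with a role in the cell cycle and in growth control included both DEGs. Ccng1 (chr11:40748552-40755311, minus strand) encodes cyclin G1, which recruits a phosphatase to Mdm2 and is among the targets that p53 induces most reliably. It was measured at 1091, 1152, 578 and 1151 CPM in WT1 to WT4 and at 481, 468, 423 and 423 CPM in HOMO1 to HOMO4. All HOMO libraries were below all WT libraries, and WT3 lay nearer to the HOMO range than to the other 3 WT libraries. Ccng1 was downregulated in HOMO pFBs with a log2FC of −1.15 (SE 0.23, edgeR adjusted p = 0.0169), from 992.9 ± 277.8 CPM to 448.9 ± 30.1 CPM. The adjusted p was above 0.05 whenever a HOMO library was left out, at 0.0594 without HOMO1, 0.0619 without HOMO2, 0.0508 without HOMO3 and 0.0564 without HOMO4. With near-identical libraries summed, the log2FC was −1.08 and the adjusted p was 0.379.

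Phlda3 (chr1:135766119-135769136, plus strand) encodes a small lipid-binding protein that competes with Akt for the membrane and so restrains Akt signaling. The libraries WT1 to WT4 had 245, 232, 372 and 286 CPM of it, and HOMO1 to HOMO4 had 148, 153, 159 and 154 CPM. The HOMO libraries were nearly level with each other, and each lay below the lowest WT library, WT2. Phlda3 was downregulated with a log2FC of −0.88 (SE 0.17, edgeR adjusted p = 0.0134), from 283.7 ± 63.2 CPM to 153.7 ± 4.36 CPM. The adjusted p was 0.0577 without HOMO1 and 0.0566 without HOMO2. With near-identical libraries summed, the log2FC was −0.94 and the adjusted p was 0.329.

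Zmat3 (chr3:32334792-32366014, minus strand) encodes an RNA-binding zinc finger protein with a growth-suppressing role. Its levels were 149, 145, 165 and 165 CPM in WT1 to WT4 and 157, 152, 118 and 114 CPM in HOMO1 to HOMO4. HOMO1 and HOMO2 lay within the WT range, and HOMO3 and HOMO4 lay below it. The log2FC was −0.20 (SE 0.14, edgeR adjusted p = 0.362). In WT3, the tested genes of chromosome 3 had a median deviation from their 8-library mean of 0.33 on the log2 scale. This is relative to the median deviation of all tested genes in that library. With each chromosome's shift removed, without that subtraction, the log2FC of Zmat3 was −0.04 (adjusted p = 0.893).

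Among the stress-response genes, Sesn1 (chr10:41809935-41908424, plus strand) encodes sestrin 1, which restrains mTORC1 and supports antioxidant defense. It was measured at 17.7, 21.1, 48.4 and 25.9 CPM in WT1 to WT4 and at 37.2, 37.0, 33.0 and 30.1 CPM in HOMO1 to HOMO4. All HOMO libraries were above WT1, WT2 and WT4, and WT3 was above all HOMO libraries. The log2FC was 0.28 (SE 0.30, edgeR adjusted p = 0.552). Without WT3 it was 0.67 with an adjusted p of 0.0289, which met both thresholds, and limma-voom with sample weights also called Sesn1 upregulated, with a log2FC of 0.69 (adjusted p = 0.00115).

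Gdf15 (chr8:70629393-70632456, minus strand) encodes a secreted stress cytokine of the TGF-β superfamily that p53 induces, as does ATF4, a transcription factor of the integrated stress response. The WT libraries held 280, 359, 123 and 373 of its reads, and the HOMO libraries 24, 49, 142 and 127, in replicate order. The corresponding levels were 15.8, 15.4, 7.06 and 14.4 CPM in WT and 1.07, 1.48, 7.20 and 6.37 CPM in HOMO. HOMO1 and HOMO2 were far below all other libraries, while HOMO3 was just above WT3, so the genotypes overlapped. The log2FC was −1.71 (SE 0.62), farthest from 0 among the 10 genes, with an unadjusted p of 0.0228 and an edgeR adjusted p of 0.0989. DESeq2 gave a log2FC of −1.72 (adjusted p = 0.0236) and limma-voom with sample weights −2.09 (adjusted p = 0.00427), so both called Gdf15 downregulated. The authors, who used DESeq2 at the same thresholds, also list Gdf15 among the downregulated cytokines, so the edgeR result here differs from the published call. The summed proliferation markers were low in HOMO1, HOMO2, WT3 and WT4, and their part in the levels of Gdf15 was not tested. Tested genes on chromosome 8 had a median log2FC of 0.37, and with chromosome-wide shifts removed the log2FC of Gdf15 was −2.09 (edgeR adjusted p = 0.0674).

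Of the genes for cell death, Bax (chr7:45461697-45466898, minus strand) encodes the pore-forming effector of mitochondrial apoptosis. It was measured at 108, 103, 197 and 101 CPM in WT1 to WT4 and at 92.1, 97.1, 75.9 and 77.9 CPM in HOMO1 to HOMO4. WT3 stood apart above all libraries, and the gap between the lowest WT library, WT4, and the highest HOMO library, HOMO2, was small. The log2FC was −0.57 (SE 0.24, unadjusted p = 0.0393, edgeR adjusted p = 0.135). It was −0.28 without WT3 (adjusted p = 0.122), and −0.31 with chromosome-wide shifts removed (adjusted p = 0.287). The tested genes of chromosome 7 had a median deviation from their 8-library mean of 0.38 on the log2 scale in WT3. It was −0.17, −0.16, −0.07 and −0.06 in HOMO1 to HOMO4. These values are relative to the median deviation of all tested genes in the same library. The annotated gene Gm45808, which shares 12.2% of the exon bases of Bax, had 0 counts in all libraries.

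Bbc3 (chr7:16308393-16318205, plus strand) encodes Puma, a BH3-only protein that frees Bax by binding its inhibitors. It was measured at 20.4, 21.1, 27.6 and 13.7 CPM in WT1 to WT4 and at 28.4, 28.9, 20.5 and 17.8 CPM in HOMO1 to HOMO4. The genotypes overlapped, with HOMO1 and HOMO2 above all WT libraries and HOMO4 above WT4 alone. The log2FC was 0.21 (SE 0.25, edgeR adjusted p = 0.602), and it was 0.46 with chromosome-wide shifts removed (adjusted p = 0.235).

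Trp53inp1 (chr4:11156431-11174379, plus strand) encodes a stress protein that promotes p53 phosphorylation and autophagy. Levels of Trp53inp1 were 79.3, 96.6, 61.6 and 120 CPM in WT1 to WT4 and 152, 146, 85.0 and 82.5 CPM in HOMO1 to HOMO4. HOMO1 and HOMO2 were above all WT libraries, whereas HOMO3 and HOMO4 lay within the WT range. The log2FC was 0.38 (SE 0.28, edgeR adjusted p = 0.371).

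Compared per length of exon, Ccng1 was the most abundant of the 10 transcripts, at 282.7 CPM per kilobase in WT and 127.8 in HOMO, followed by Phlda3 at 182.0 and 98.6 CPM per kilobase. Bax stood at 80.8 and 54.4, Mdm2 at 61.2 and 43.9, and Trp53 at 39.7 and 37.98 CPM per kilobase in WT and HOMO. Gdf15 at 7.11 and Sesn1 at 7.10 CPM per kilobase were the least abundant in WT, and Gdf15 was the least abundant in HOMO, at 2.18 CPM per kilobase. The order of the 5 most abundant transcripts was thus the same in both genotypes. These values assume that all annotated exon bases of a gene are transcribed.

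The 10 genes did not move as a block across libraries. For each gene, log2 CPM was centred on its mean over the 8 libraries. In WT1, Gdf15 stood at 1.35 above its mean, Ccng1 at 0.74 and Mdm2 at 0.73, while Sesn1 stood at −0.76. In WT3 the highest were Bax at 0.95, Phlda3 at 0.85 and Sesn1 at 0.69, and the lowest was Trp53inp1 at −0.67. In HOMO1 and HOMO2, Gdf15 was at −2.42 and −1.98 while Trp53inp1 was at 0.62 and 0.57. The mean over the 9 target genes lay between 0.22 and 0.27 in the WT libraries and between −0.30 and −0.18 in the HOMO libraries, although different genes made up the mean in each library. Its sign in HOMO1 and HOMO2 rested on Gdf15. Without Gdf15, which was left out after the values were seen, the mean was 0.09, 0.13, 0.22 and 0.09 in WT1 to WT4 and 0.04, 0.05, −0.28 and −0.34 in HOMO1 to HOMO4. This mean is a description without a test, since the genes were chosen with earlier results of these data known.

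**Figure D3:**
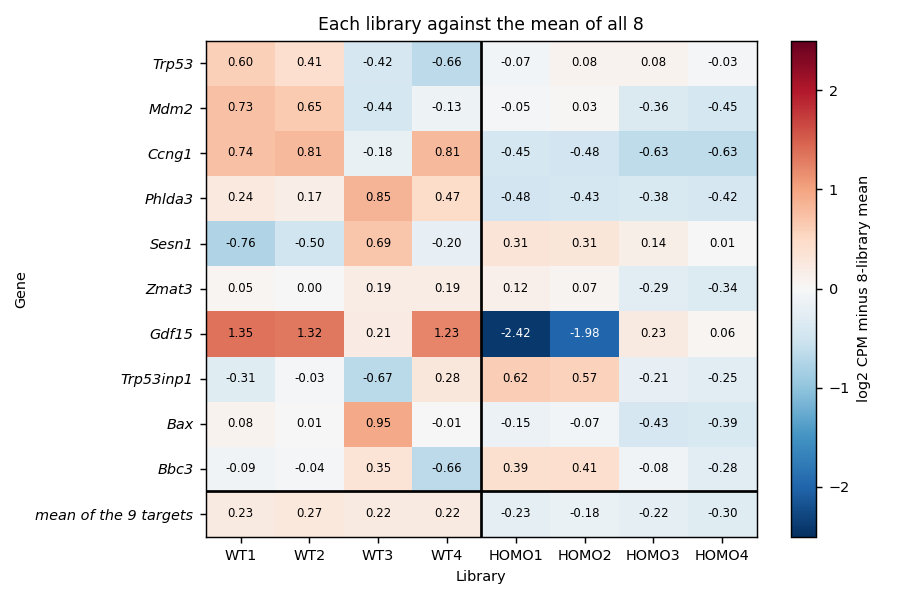
Log2 CPM of each gene in each library minus its mean over the 8 libraries, as colour and number, with WT left and HOMO right of the black line, and the mean over the 9 target genes in the bottom row. The bottom row lies between 0.22 and 0.27 in WT and between −0.30 and −0.18 in HOMO, where Gdf15 alone makes HOMO1 and HOMO2 negative, whereas single genes such as Sesn1, Trp53inp1 and Bbc3 run against it.

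Without regard to thresholds, 3 of the 10 genes (Ccng1, Phlda3 and Bax) had genotypes that did not overlap, with HOMO lower in each, while 27.3% of all tested genes had no overlap, 14.0% with HOMO higher and 13.4% with HOMO lower. An unadjusted p under 0.05 was found for 4 of the 10 (these 3 and Gdf15) and for 32.3% of all tested genes. Both counts were near the background in either direction, and with HOMO lower the 3 of 10 stood beside 13.4% of all tested genes. The 2 DEGs were 20% of the 10 genes. limma-voom with sample weights called 5 of the 10 genes, Mdm2, Ccng1, Phlda3 and Gdf15 down and Sesn1 up, at a background of 25.3% of all tested genes. DESeq2 called 3, Ccng1, Phlda3 and Gdf15, at a background of 10.7%. edgeR called Ccng1 and Phlda3 with chromosome-wide shifts removed, at a background of 10.7%, and with the replicate number as a block, at a background of 6.69%.

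**Figure D4:**
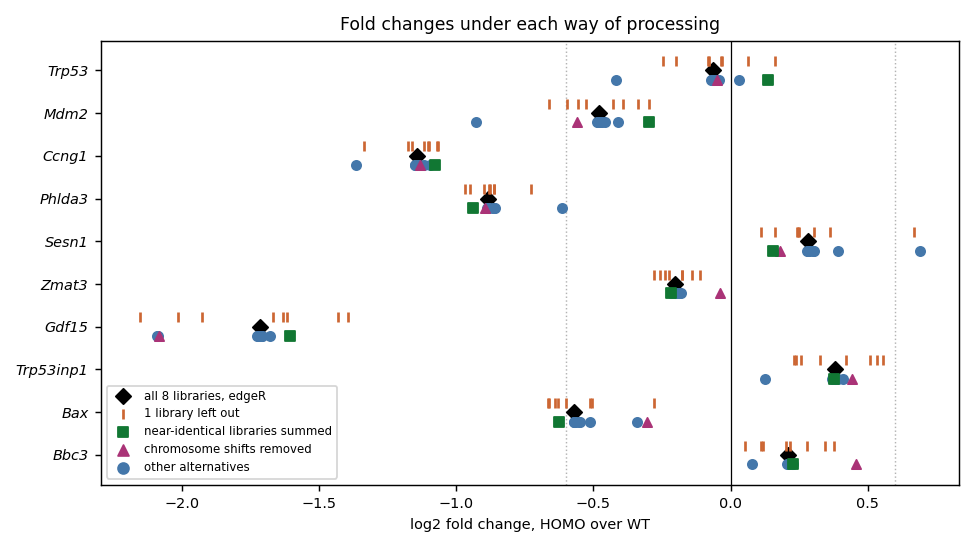
Log2FC (HOMO over WT) of the 10 genes with all 8 libraries in edgeR (black diamonds), with 1 library left out (orange ticks), with near-identical libraries summed (green squares), with chromosome-wide shifts removed (purple triangles) and under the other alternatives (blue circles); dotted lines mark −0.6 and 0.6. Ccng1, Phlda3, Mdm2, Bax, Zmat3 and Gdf15 stay below 0 and Sesn1, Trp53inp1 and Bbc3 above 0 in each of the 18 alternatives, and Trp53 lies on both sides.

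Across the 18 alternatives, the log2FC of Ccng1 ranged from −1.36 to −1.07, that of Phlda3 from −0.97 to −0.61, and that of Gdf15 from −2.15 to −1.40. Mdm2 ranged from −0.93 to −0.30, Bax from −0.66 to −0.28, and Zmat3 from −0.28 to −0.04. The 3 genes with higher HOMO means ranged from 0.11 to 0.69 for Sesn1, from 0.12 to 0.56 for Trp53inp1, and from 0.05 to 0.46 for Bbc3. Trp53 ranged from −0.42 to 0.16.

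The other genes of the pathway were 52 regulators, relatives and targets of p53, of which 50 were tested. Of these, 4 were DEGs, 2 downregulated (Fas and Pmaip1) and 2 upregulated (Ddb2 and Fdxr), a share of 8% of the list beside 12.1% of all tested genes. The median log2FC of the 50 was −0.25, with 33 below 0 and 17 above, and the genotypes did not overlap for 11, 6 with HOMO higher and 5 with HOMO lower, beside 27.3% of all tested genes, 14.0% higher and 13.4% lower. Trp63 and Trp73, the relatives of p53, did not pass the filter and reached at most 0.602 and 0.0858 CPM in any library. By role, 0 of 14 regulators, 0 of 8 arrest genes, 2 of 10 apoptosis genes, 1 of 4 DNA repair genes, 1 of 6 metabolic and redox genes and 0 of 8 other targets were DEGs.

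Fas, the death receptor that triggers apoptosis from the cell surface, was measured at 49.4, 52.3, 54.2 and 52.7 CPM in WT1 to WT4 and at 16.6, 18.7, 15.7 and 16.9 CPM in HOMO1 to HOMO4. The libraries of each genotype were close together, and the genotypes were far apart. Fas was downregulated 3.07-fold, with a log2FC of −1.62 (SE 0.12, edgeR adjusted p = 0.000417), and stayed a DEG whichever library was left out. With near-identical libraries summed, its adjusted p was 0.161. Pmaip1, which encodes the BH3-only protein Noxa, was at 69.6, 66.7, 53.8 and 30.9 CPM in WT1 to WT4 and at 26.1, 22.6, 21.8 and 29.1 CPM in HOMO1 to HOMO4. WT4 lay just above the highest HOMO library. Its log2FC was −1.15 (SE 0.25, edgeR adjusted p = 0.0230), and the adjusted p was between 0.0511 and 0.0843 without WT2 or without any 1 of the HOMO libraries. It was 0.0506 with chromosome-wide shifts removed.

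The 2 upregulated targets were listed here under metabolism and redox (Fdxr) and under DNA repair (Ddb2). Fdxr, the mitochondrial ferredoxin reductase, was at 20.7, 25.8, 11.4 and 25.2 CPM in WT1 to WT4 and at 44.6, 47.1, 67.2 and 66.0 CPM in HOMO1 to HOMO4. All HOMO libraries were above all WT libraries, and WT3 was lowest. Its log2FC was 1.43 (SE 0.28, edgeR adjusted p = 0.0148), and it was a DEG in each of the 8 fits that left out a library, but not with near-identical libraries summed (adjusted p = 0.301). Ddb2, the damage sensor of nucleotide excision repair, was at 2.59, 2.32, 1.09 and 2.75 CPM in WT1 to WT4 and at 5.39, 6.47, 5.02 and 5.97 CPM in HOMO1 to HOMO4, with no overlap. Its log2FC was 1.38 (SE 0.32, edgeR adjusted p = 0.0264), and the adjusted p was between 0.0537 and 0.0912 without WT2 or without any 1 of the HOMO libraries. Ddb2 shares 23.8% of its exon bases with Acp2 on the opposite strand, whose log2FC was −0.51 (adjusted p = 0.0813), and whether counting used strand is not given in the sources used here.

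**Figure D5:**
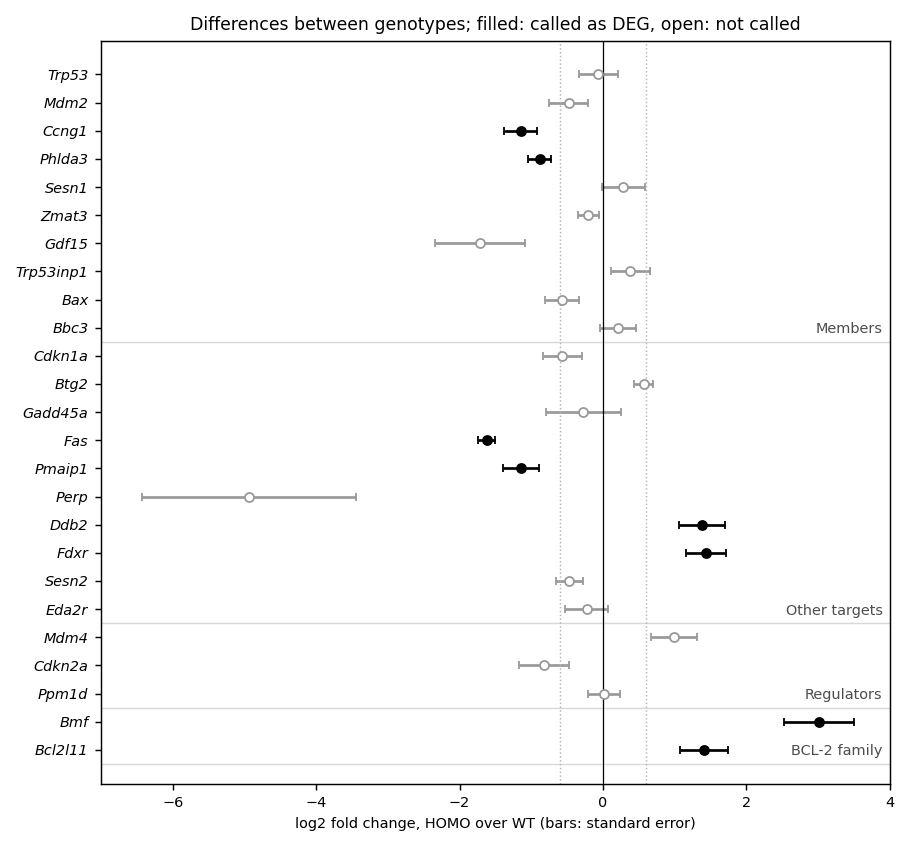
Log2FC (HOMO over WT, points) with SE (bars) from edgeR for the 10 genes, 10 further p53 targets, 3 regulators and 2 BCL-2 family genes, filled where the gene was a DEG, with dotted lines at −0.6 and 0.6. Ccng1, Phlda3, Fas and Pmaip1 are filled on the left, and Ddb2, Fdxr, Bmf and Bcl2l11 on the right.

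Of the 8 arrest genes in the list, 0 were DEGs by edgeR and 1 had an unadjusted p under 0.05, beside 12.1% and 32.3% of all tested genes. So few genes cannot tell this share from the background. Cdkn1a, which encodes the cyclin-dependent kinase inhibitor p21, was at 280, 270, 441 and 569 CPM in WT1 to WT4 and at 304, 307, 223 and 220 CPM in HOMO1 to HOMO4. WT3 and WT4 stood above the rest, and HOMO1 and HOMO2 were above WT1 and WT2. Its log2FC was −0.56 (SE 0.27, edgeR adjusted p = 0.180), and −0.17 in limma-voom with sample weights (adjusted p = 0.303). Of its exon bases, 7.68% are shared with an unconfirmed transcript on the other strand. Btg2, an antiproliferative gene, had a log2FC of 0.57 (SE 0.14, edgeR adjusted p = 0.0302), which missed the fold threshold alone, and it was 0.64 without WT3. Gadd45a was at −0.27 (adjusted p = 0.755) with 13.4 to 74.0 CPM in WT and 19.2 to 38.6 CPM in HOMO, and without WT3 its log2FC was 0.32.

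Of the regulators, Mdm4, the partner of Mdm2 in holding p53 down, was at 111.5, 110.1, 37.9 and 68.7 CPM in WT1 to WT4 and at 177, 188, 139 and 147 CPM in HOMO1 to HOMO4. All HOMO libraries were above all WT libraries, with a log2FC of 0.99 (SE 0.32, edgeR adjusted p = 0.0731). It passed both thresholds without WT3, at 0.75 (adjusted p = 0.0393), and in DESeq2, at 0.98 (adjusted p = 0.0346). Cdkn2a, whose Arf product blocks Mdm2, was at 41.6, 42.9, 119 and 105 CPM in WT1 to WT4 and at 44.0, 42.0, 46.0 and 41.7 CPM in HOMO1 to HOMO4, so that WT1 and WT2 were close to the HOMO libraries and WT3 and WT4 far above them. Its log2FC was −0.83 (SE 0.35, edgeR adjusted p = 0.142), and −0.01 in limma-voom with sample weights (adjusted p = 0.961). The leukocyte markers were also highest in WT3 and WT4, and their part in the levels of Cdkn2a and Cdkn1a was not tested. Ppm1d, the phosphatase that ends the p53 response, was at a log2FC of 0.01 (adjusted p = 0.971).

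The remaining targets that were looked at by name had values as follows. Sesn2, the sestrin paralog that ATF4 also induces, was at −0.47 (SE 0.19, edgeR adjusted p = 0.132), where Sesn1 was at 0.28, and limma-voom called it downregulated at −0.72 (adjusted p = 0.000718). Eda2r, a receptor gene, was at −0.23 (edgeR adjusted p = 0.633), and limma-voom called it downregulated at −0.77 (adjusted p = 0.00185). Perp, a desmosome and apoptosis gene, had 303 counts in WT3 against 17 to 59 in the other WT libraries and 0 to 13 in HOMO, and its log2FC of −4.94 (adjusted p = 0.0609) was −2.99 without WT3. Perp was called downregulated by DESeq2 (−4.92, adjusted p = 0.0253), by limma-voom (−3.24, adjusted p = 0.0162) and without HOMO4 (−7.41, edgeR adjusted p = 0.0465).

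Among the relatives of the 10 genes, 7 of 10 paralogs were tested and 0 were DEGs by edgeR, while 4 had an unadjusted p under 0.05. Over all tested genes 12.1% were DEGs and 32.3% had such a p. In the BCL-2 family, to which Bax and Bbc3 belong, 3 of the 11 tested genes of 13 were DEGs, beside the same 12.1%, namely Pmaip1 downregulated and Bmf and Bcl2l11 upregulated. Bmf, a BH3-only gene linked to loss of anchorage, was at 3.94, 4.59, 14.1 and 5.65 CPM in WT1 to WT4 and at 76.3, 79.6, 36.4 and 35.3 CPM in HOMO1 to HOMO4. All HOMO libraries were above all WT libraries, with a log2FC of 3.01 (SE 0.49, edgeR adjusted p = 0.00856). Bcl2l11, which encodes Bim, a BH3-only activator of Bax, had a log2FC of 1.41 (SE 0.33, edgeR adjusted p = 0.0291), and its adjusted p was 0.0539 without WT2, 0.0946 without HOMO1 and 0.0940 without HOMO2. A list of Atf4 and 10 of its targets, 2 of which (Sesn2 and Ddit4) were also counted among the p53 genes, held 0 DEGs by edgeR and 4 of 11 with an unadjusted p under 0.05, beside 12.1% and 32.3%. All 11 log2FC were below 0, from −1.25 to −0.04, with a median of −0.47, as were 7457 of all 14150. Of the 14 proliferation markers, 0 were DEGs by edgeR and 0 had an unadjusted p under 0.05, with 13 log2FC below 0.

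The genes whose pattern over the 8 libraries was most like that of 3 of the 10 genes were found by the root mean square difference of centred log2 CPM. For Gdf15 these were Gm26737 at 0.31, Col10a1 at 0.34 and Sdc3 at 0.35. For Ccng1 they were Prss23 at 0.13, Vegfa at 0.14 and 1700003M07Rik at 0.15. For Phlda3 they were Pgrmc1 at 0.05, Ddost at 0.05 and Rhoc at 0.06. These are the closest of 14150 genes, and the libraries include near-identical pairs, so the likeness is a description only.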

How the data were processed

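The authors selected poly-A RNA and sequenced paired ends. Their methods name fastp for trimming, STAR for alignment to mm10 and featureCounts for counting, and the deposited values are these raw counts per gene. The submitters' processing notes list CASAVA, STAR, featureCounts and DESeq2. The label of the table, "outlierout", is not explained in the sources used here. All 8 libraries were grouped by the genotype in their labels.

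The deposited counts were tested with edgeR 4.0.16 in R 4.3.3 (filterByExpr by genotype, TMM, two-sided quasi-likelihood F test, Benjamini-Hochberg over 14150 genes). SE is the absolute log2FC over the square root of F, and a prior count of 2 was added for log2 CPM. The fits were tried on simulated counts with independent libraries. Such counts lack the near-identical pairs of these data, so the simulation gives no error rates for the results here. Positions and exons came from GENCODE M21, and upstream windows from RefSeq. Alternatives were DESeq2 1.42.0, limma 3.58.1 (voom with sample weights), RLE and upper-quartile scaling, 2 other filters, robust dispersion, a replicate block, offsets that remove each chromosome's median shift per library, other thresholds, leaving out each library, and summing near-identical libraries. Figures were drawn with Python 3.11.15 and matplotlib 3.10.9.

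The genes and lists were chosen with earlier results of these data known. Genes named were the 10 genes, 12 other pathway genes chosen with them, each further pathway gene called, called genes of the paralog, BCL-2, ATF4 and proliferation lists, and, for the 3 genes of the 10 that varied most over libraries, the 3 tested genes most like each.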

Additional observations from a re-analysis of the deposited data

Results flagged for a closer look

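In a screen of 50 combinations of a gene and a genotype for 1 library far from the other 3, chance alone flags about 1 in 20 when the libraries are independent. Near-identical pairs such as HOMO1 with HOMO2 do not meet this condition, so the rate that applies here is not known. Ccng1, Gdf15 and Bax were picked out, each for WT3. On the log2 CPM scale, Ccng1 was at 9.18 in WT3 and at 10.09 to 10.17 in the other WT libraries. Gdf15 was at 2.84 in WT3 and at 3.86 to 3.99 in the others. Bax was at 7.62 in WT3 and at 6.67 to 6.76 in the others. WT3 was thus low for Ccng1 and Gdf15 and high for Bax. It was also the library with the highest sum of leukocyte markers (1924 CPM) and with the chromosome-wide shift on chromosome 7 that is given with Bax, and their part in these 3 values was not tested. Without WT3, edgeR called 3 of the 10 genes, Ccng1, Phlda3 and Sesn1. In that fit 2192 of all 14615 tested genes were DEGs, where all 8 libraries gave 1716 of 14150.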

How the results depend on the processing

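The counts of DEGs among all genes, among the 10 genes and among the other pathway genes were 1716, 2 and 4. They were 2913, 3 and 9 with DESeq2, 3573, 5 and 18 with limma-voom, 398, 0 and 1 at an adjusted p under 0.01, and 0, 0 and 0 with near-identical libraries summed, where 2057, 2 and 6 genes had an unadjusted p under 0.05. With the replicate number as a block they were 947, 2 and 1. Same-numbered libraries did not deviate together (r of −0.12 to 0.01), so the numbers are not taken to pair them. Leaving out 1 library gave 507 to 2192, 0 to 3 and 2 to 8, with the lowest counts of the 10 genes without HOMO1 or HOMO2 (0) and the highest without WT3. Among 449 values of 25 named genes, 394 kept direction and side of the thresholds, 31 fell short of them, 14 newly met them and 10 changed sign. The changed signs were Trp53 under the block (0.032), without WT1 (0.16), without WT2 (0.06) and with libraries summed (0.14), Ppm1d with limma-voom (−0.21), without WT4 (−0.16) and without HOMO2 (−0.02), and Gadd45a with limma-voom (0.72), under the block (0.030) and without WT3 (0.32). With 1 library left out, Trp53 ranged from −0.25 to 0.16, Ppm1d from −0.16 to 0.11 and Gadd45a from −0.55 to 0.32. The causes were not tested, except that summing leaves fewer samples. RLE, upper-quartile scaling, both other filters, robust dispersion, chromosome offsets and no fold threshold kept all 3 counts within 1.5 times.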
